A study of Mus musculus with 9 samples.

Results

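This account follows 10 genes known from fat cells through 9 uterus libraries: Adipoq, Plin1, Fabp4, Cidec, Lep, Car3, Cfd, Retn, Plin4 and Pck1. They were taken by symbol from the 34619 unique gene symbols of the deposited tables, and each symbol stood on 1 line. All libraries came from female wild-type CD-1 (ICR) mice, an outbred stock, bought at 7 to 8 weeks of age and acclimatized for 1 week on estrogen-free food. In the BPB group (n = 3) mice took bisphenol B and in the BPAF group (n = 3) bisphenol AF, each by gavage at a daily dose of 300 µg/kg body weight over 28 days. The control group (n = 3) took corn oil alone. Both compounds are bisphenol A replacements: the carbon that joins the phenol rings bears a methyl and an ethyl group in BPB, and trifluoromethyl groups in BPAF. The labels do not say whether each replicate number was a separate mouse, so p-values measure only the spread between these samples, which may be technical. They do not give the cycle stage.

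White fat cells store triglyceride in a single large droplet and release hormones. The nuclear receptor PPARγ, with the C/EBP factors, switches on the genes of droplet coating, fatty acid handling and hormone secretion when the cells mature. In the mouse, the uterine horns hang in the broad ligament next to parametrial fat, so that fat cells lie against the outer surface of the organ. Plin1, Plin4 and Cidec encode droplet proteins, Fabp4 a fatty acid carrier, Adipoq, Lep, Retn and Cfd the secreted proteins adiponectin, leptin, resistin and adipsin, Car3 a cytosolic carbonic anhydrase and Pck1 the enzyme that makes glycerol backbone precursors. Fabp4 is also known from endothelium and macrophages, Car3 from skeletal muscle, and Pck1 from liver and kidney.

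Values are FPKM, which scale reads by gene length and library total, and the libraries rested on 12620196 to 15616774 reads. Uterine genes were present in all 9 libraries, with Esr1, the main estrogen receptor of the organ, at 12.9 to 29.6 FPKM and Hoxa10, a homeobox gene of the uterus, at 11.5 to 81.3 FPKM. Some libraries stood apart before any comparison. Upk1a, a uroplakin of the bladder lining, had 497, 653 and 758 FPKM in the BPB libraries, 400, 0.838 and 3.14 FPKM in the BPAF libraries, and 0.203, 2.98 and 0 FPKM in the controls. The 13 mitochondrial genes took 19.6% to 27% of the FPKM sum in the exposed libraries, against 14%, 14.1% and 34.1% in the controls.

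The adipocyte genes were high in 4 exposed libraries and almost absent in BPAF 2, while in BPB 3 their sum was close to that of the controls. The sum over the 10 genes was 1056, 413 and 136 FPKM in BPB 1, 2 and 3, 788, 5.31 and 459 FPKM in BPAF 1, 2 and 3, and 106, 111 and 131 FPKM in controls 1, 2 and 3. All 10 genes lay above every control in BPB 1, BPB 2 and BPAF 3, and 9 did so in BPAF 1. In BPB 3 only 3 of the 10 genes were above every control and 6 were below every control. In BPAF 2, 9 of the 10 were below every control and 4 were listed at 0. The median ratio of a gene to its own control mean was 7.1 in BPB 1, 4.27 in BPB 2, 0.616 in BPB 3, 5.63 in BPAF 1, 0.00426 in BPAF 2 and 4.23 in BPAF 3. In bulk tissue, fewer fat cells and less of these RNAs per fat cell cannot be told apart.

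**Figure D1:**
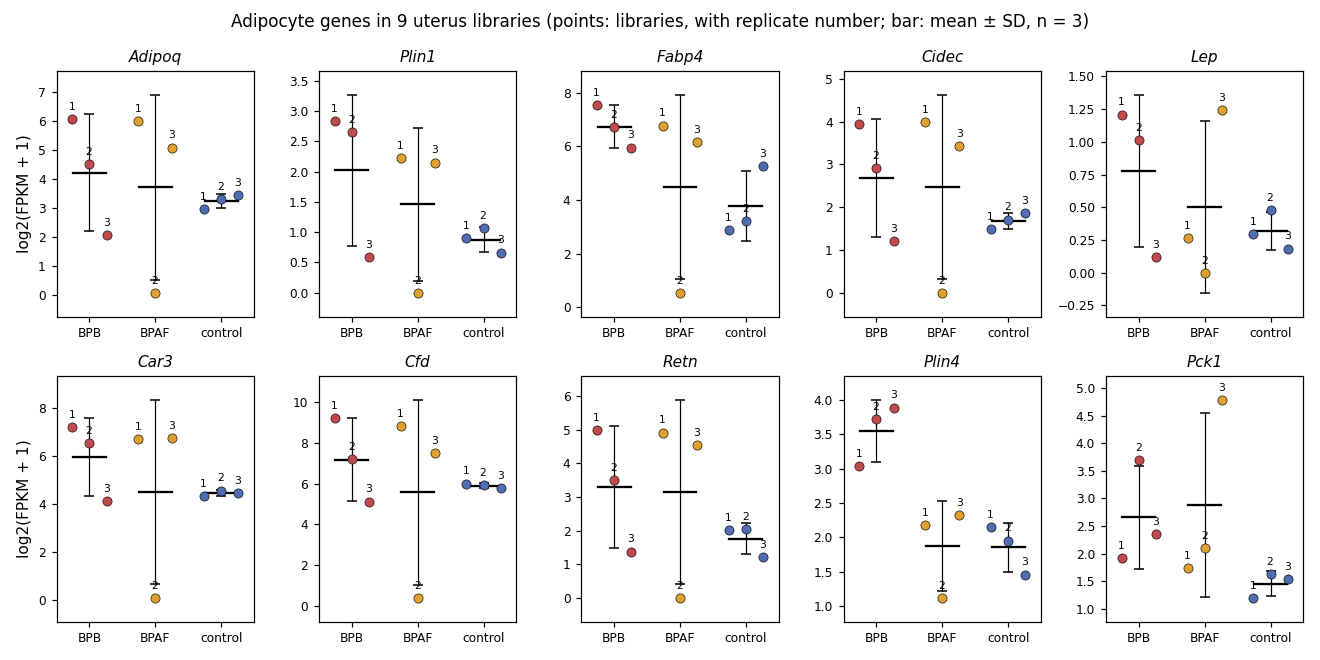
Level of each adipocyte gene, as log2(FPKM + 1) on the y axis of its panel, in the BPB, BPAF and control groups; points are libraries with their replicate number, and the bar and whiskers are the mean ± SD (n = 3). BPAF 2 is the lowest library in 9 panels, and Pck1 is the panel where it is not.

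Among the secreted proteins, Adipoq, Cfd and Retn were all above every control in BPB 1, BPB 2, BPAF 1 and BPAF 3 and lowest in BPAF 2. Adipoq, which encodes adiponectin, a hormone that raises insulin sensitivity, had 66.7, 21.9 and 3.17 FPKM in BPB 1, 2 and 3, 63.8, 0.0428 and 33 FPKM in BPAF 1, 2 and 3, and 6.84, 8.93 and 9.9 FPKM in the controls. The controls lay close together, and both exposed groups had libraries above and below them. The value in BPAF 2 corresponds to about 1 read, against 68 to 1558 reads in the other 8 libraries. Cfd, or adipsin, a protease of the alternative complement pathway, was the most abundant of the 10 per length, with 596, 148 and 33.8 FPKM in BPB, 458, 0.297 and 182 FPKM in BPAF, and 63.4, 59.5 and 54.3 FPKM in the controls. The order of the exposed libraries was the same as for Adipoq. Retn, or resistin, had 30.9, 10.3 and 1.6 FPKM in BPB, 29.1, 0 and 22.2 FPKM in BPAF, and 3.08, 3.1 and 1.34 FPKM in the controls.

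Lep was the least abundant of the 10 and departed from the other hormones in 1 library. It encodes leptin, the satiety hormone of white fat, and had 1.31, 1.02 and 0.0851 FPKM in BPB, 0.2, 0 and 1.37 FPKM in BPAF, and 0.227, 0.391 and 0.136 FPKM in the controls. BPAF 1, where Adipoq, Cfd and Retn were 7.46, 7.74 and 11.6 times their control means, had Lep at 0.797 times its control mean. These values rest on 67, 56 and 4 reads in BPB, 9, 0 and 64 reads in BPAF, and 12, 19 and 6 reads in the controls, so a low Lep level is known only coarsely. Lep reached 1 FPKM in 3 libraries, all of them exposed, and entered the test through them.

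Among the droplet proteins, Plin1 and Cidec followed Adipoq and Plin4 did not. Plin1, or perilipin 1, which coats the droplet and guards it from lipases, had 6.14, 5.27 and 0.504 FPKM in BPB, 3.69, 0 and 3.43 FPKM in BPAF, and 0.875, 1.09 and 0.585 FPKM in the controls. Cidec, which drives the fusion of small droplets into 1 large droplet, had 14.4, 6.51 and 1.3 FPKM in BPB, 14.9, 0 and 9.75 FPKM in BPAF, and 1.81, 2.27 and 2.62 FPKM in the controls. For both genes BPB 3 lay just below the controls and BPAF 2 was listed at 0. Plin4, a perilipin of nascent droplets, had 7.21, 12.2 and 13.8 FPKM in BPB, 3.52, 1.17 and 3.99 FPKM in BPAF, and 3.45, 2.87 and 1.75 FPKM in the controls. Its 3 BPB libraries lay above all others, and BPB 3, low for Plin1 and Cidec, was the highest. In GENCODE M21 exons of Plin4 overlap those of Hdgfl2 on the opposite strand, and the sources used here do not say whether reads were counted by strand, so the level of Plin4 is uncertain. Hdgfl2, listed under its older symbol Hdgfrp2, had 26.5 to 32.6 FPKM in BPB, 27.5 to 31.2 FPKM in BPAF and 10.8 to 29.2 FPKM in the controls.

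The enzymes and the fatty acid carrier split in the same way. Car3 had 146, 92.2 and 16.5 FPKM in BPB, 103, 0.0736 and 105 FPKM in BPAF, and 19.1, 22.6 and 21 FPKM in the controls, the same split between libraries as for Adipoq. Fabp4 had 185, 104 and 61.1 FPKM in BPB, 109, 0.454 and 70.9 FPKM in BPAF, and 6.28, 8.27 and 37.3 FPKM in the controls. It was therefore above every control in BPB 3 as well, and control 3 stood above the other 2 controls. Pck1 had 2.77, 12 and 4.09 FPKM in BPB, 2.35, 3.27 and 26.6 FPKM in BPAF, and 1.29, 2.08 and 1.92 FPKM in the controls. BPAF 2, with 268 reads of Pck1 and about 1 of Adipoq, was above every control for Pck1.

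The ratio of each gene to Adipoq within a library showed which genes kept step. In the 8 libraries with at least 10 reads of Adipoq, Adipoq itself ranged over 21.1-fold. The Cidec to Adipoq ratio stayed between 0.216 and 0.411, a range of 1.9-fold, and the Cfd to Adipoq ratio between 5.49 and 10.7, a range of 1.94-fold. Ranges were 3.23-fold for Car3, 4.17-fold for Plin1 and 4.98-fold for Retn. The ratio for Retn was 0.347 to 0.672 in 7 of the libraries and 0.135 in control 3. Ranges were wider for Lep (14.9-fold), Fabp4 (21-fold), Pck1 (35.1-fold) and Plin4 (78.6-fold). For Fabp4 the ratio was 19.3 in BPB 3, against 0.919 in control 1 and 0.927 in control 2.

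**Figure D2:**
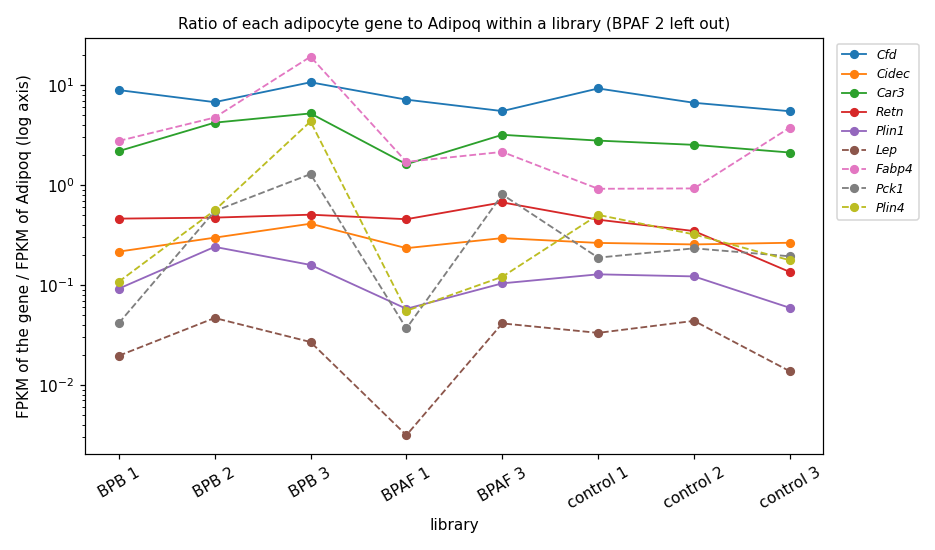
FPKM of each gene divided by that of Adipoq in the same library, on a log axis, for 8 libraries; BPAF 2 is left out because Adipoq had about 1 read there. Solid lines (Cfd, Cidec, Car3, Retn and Plin1) stay within 4.98-fold, and dashed lines (Lep, Fabp4, Pck1 and Plin4) range over 14.9-fold to 78.6-fold.

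As a description over 9 libraries, which share their preparation and differ in group, the Pearson r of log2(FPKM + 1) with the mean of the other 9 adipocyte genes was 0.89 to 0.98 for Adipoq, Plin1, Fabp4, Cidec, Car3, Cfd and Retn, 0.76 for Lep, 0.5 for Plin4 and 0.35 for Pck1. Without BPAF 2 it was 0.76 to 0.99 for those 7 genes, 0.75 for Lep, 0.22 for Plin4 and 0.44 for Pck1.

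The promoter windows of 8 of the 10 genes were at hand from RefSeq (build GRCm38.p6, 250 bases before to 50 after the start site), and 4 are printed. Adipoq stands for the genes that moved together, and Lep, Plin4 and Pck1 for those that did not keep step with it. Capitals mark matches, on either strand, to the TATA element TATAA, the box CCAAT, the C/EBP pattern TTGCNNAA, the cAMP response pattern TNACGTCA, the nuclear receptor element AGGTCA and a repeat of that element spaced by 1 base, which PPARγ binds with its partner RXR. The windows are chr16:23146286-23146585 on the plus strand for Adipoq, chr6:29059971-29060270 on the plus strand for Lep, chr17:56109733-56110032 on the minus strand for Plin4 and chr2:173152823-173153122 on the plus strand for Pck1.
Adipoq: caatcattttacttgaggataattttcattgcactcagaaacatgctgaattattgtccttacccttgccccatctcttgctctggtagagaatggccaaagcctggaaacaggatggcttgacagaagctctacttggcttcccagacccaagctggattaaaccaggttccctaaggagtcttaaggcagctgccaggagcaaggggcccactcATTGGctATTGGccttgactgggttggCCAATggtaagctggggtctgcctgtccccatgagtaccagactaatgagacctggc
Lep: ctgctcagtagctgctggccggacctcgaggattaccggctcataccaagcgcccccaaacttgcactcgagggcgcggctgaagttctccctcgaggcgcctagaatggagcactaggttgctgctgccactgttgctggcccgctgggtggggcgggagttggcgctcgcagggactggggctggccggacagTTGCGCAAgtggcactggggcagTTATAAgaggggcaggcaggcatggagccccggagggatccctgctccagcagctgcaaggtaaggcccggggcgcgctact
Plin4: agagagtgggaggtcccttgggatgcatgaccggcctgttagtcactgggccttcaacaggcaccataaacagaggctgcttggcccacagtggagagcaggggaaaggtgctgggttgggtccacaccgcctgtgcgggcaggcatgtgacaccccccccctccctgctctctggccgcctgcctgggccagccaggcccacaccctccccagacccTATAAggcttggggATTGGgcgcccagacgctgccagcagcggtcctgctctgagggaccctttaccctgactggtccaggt
Pck1: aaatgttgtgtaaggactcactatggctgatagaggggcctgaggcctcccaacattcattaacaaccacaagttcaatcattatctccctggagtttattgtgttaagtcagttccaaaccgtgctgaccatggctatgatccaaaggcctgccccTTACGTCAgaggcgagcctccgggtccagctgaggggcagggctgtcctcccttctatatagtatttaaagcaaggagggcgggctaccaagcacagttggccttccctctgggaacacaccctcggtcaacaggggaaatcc
Counted from the start site, the CCAAT match of Adipoq began at -7, with its reverse ATTGG at -34 and -27. Lep held TATAA at -31 and the C/EBP pattern at -55, Plin4 held TATAA at -32 and ATTGG at -18, and Pck1 held the cAMP response pattern at -93. TATAA occurred in 24.9% of 32851 mouse windows of this length and in 2 of the 8 genes, CCAAT in 37.4% and in 2 genes, and the C/EBP pattern in 10.8% and in 3 genes (Cidec, Lep and Plin1). The 8 genes had 9 windows, since Cidec had 2 and matched in 1 of them only. Shares of windows and counts of genes are thus unlike units. The cAMP response pattern occurred in 2.93% of windows and in 1 gene. AGGTCA, found in 16.3% of windows, and the spaced repeat, found in 0.0396%, had no match among the 8 genes, which says only that these letters are not in these windows.

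Between BPB and control no adipocyte gene passed the test, with Plin4 next to the threshold. Limma was run on log2(FPKM + 1) over the 13743 genes that reached 1 FPKM in 3 libraries or more, the 10 adipocyte genes among them, and a call required an adjusted p (Benjamini-Hochberg) under 0.05. None of the 10 was called, where 2.55% of all tested genes were (351 genes, and 0 to 436 with 1 library left out), and 1 of the 10 had an unadjusted p under 0.05, where 17.4% of all genes did. The mean Plin4 level was 11.1 ± 3.42 FPKM in BPB, against 2.69 ± 0.862 FPKM in control (SD over 3 libraries each), a log2 difference of 1.69 (95% interval 0.85 to 2.54, limma adjusted p = 0.0515). Leaving out BPAF 2 from the shared estimate of spread took it past the threshold, at a limma adjusted p of 0.0278. The mean Fabp4 level was 117 ± 63 FPKM in BPB, against 17.3 ± 17.4 FPKM in control, with a difference of 2.96 (interval -0.26 to 6.17, limma adjusted p = 0.326).

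The other genes had wide intervals. Adipoq stood at 30.6 ± 32.7 FPKM in BPB, against 8.56 ± 1.57 FPKM in control, a log2 difference of 0.98 with an interval of -2.27 to 4.22 (limma adjusted p = 0.795). The SD in BPB was larger than the mean. All 10 differences were positive, between 0.46 for Lep and 2.96 for Fabp4, with a median of 1.24, where the median of all tested genes was 0.15. Under scaling by median ratios the median of all tested genes was -0.04. The adipocyte differences were lower under that scaling as well, from 0.75 for Adipoq to 2.72 for Fabp4 among the 9 still tested. Groups did not overlap, with BPB higher, for 3 of the 10 genes (Fabp4, Plin4 and Pck1), where this held for 19.5% of all genes, and with BPB lower for none, where it held for 6.1%. Without BPB 3 the difference was 2.06 for Adipoq, and without BPB 1 it was 0.04.

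**Figure D3:**
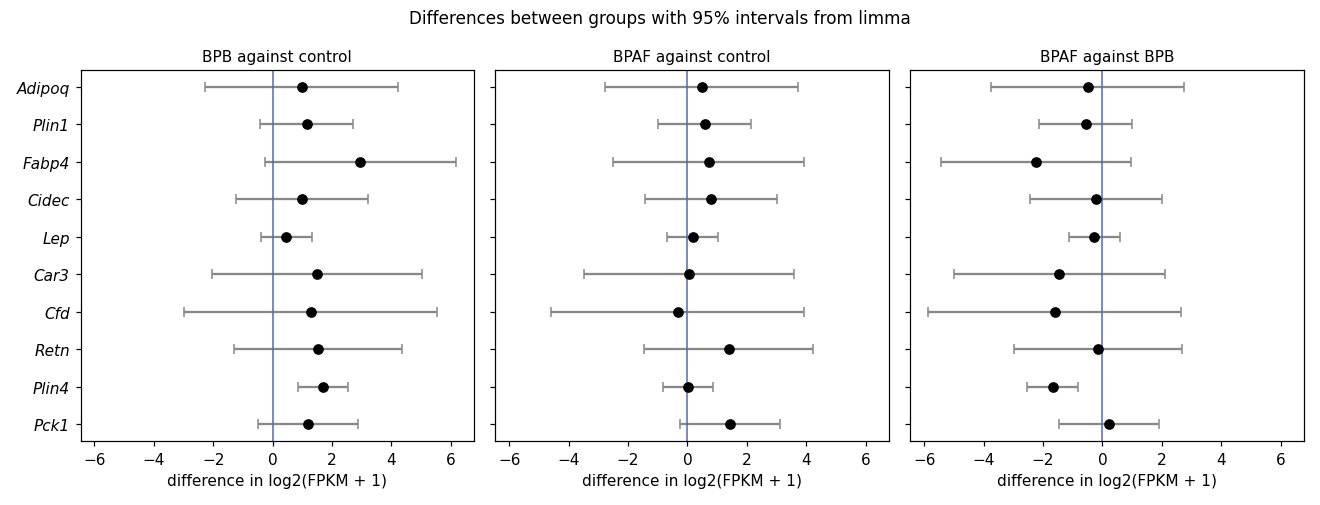
Difference in log2(FPKM + 1) for each adipocyte gene (points) with its 95% interval from limma (bars), for BPB against control, BPAF against control and BPAF against BPB. The line marks 0, and the intervals that leave it out are those of Plin4 for BPB against control and BPAF against BPB, whose adjusted p did not pass.

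Between BPAF and control the differences rested on which BPAF library was counted. None of the 10 genes was called, where 0.0218% of all genes were, and 0 of the 10 had an unadjusted p under 0.05 in limma, where 12.8% of all genes did. Adipoq averaged 32.3 ± 31.9 FPKM in BPAF and 8.56 ± 1.57 FPKM in control, and its log2 difference was 0.48 (interval -2.76 to 3.72, limma adjusted p = 0.91). Without BPAF 2 it was 2.31, and without BPAF 1 it was -0.67. Cfd averaged 213 ± 230 FPKM in BPAF and 59.1 ± 4.55 FPKM in control, so its mean was higher in BPAF while its log2 difference was -0.33 (interval -4.58 to 3.92, limma adjusted p = 0.958). Without BPAF 2 the Cfd difference was 2.27, with a limma adjusted p of 0.331. Pck1 was the 1 gene of the 10 whose groups did not overlap, BPAF being higher (14.3% of all genes, with a further 2.5% lower), at 10.7 ± 13.8 FPKM in BPAF and 1.76 ± 0.42 FPKM in control (difference 1.42, interval -0.26 to 3.10, limma adjusted p = 0.447). The median difference of the 10 genes was 0.53, and that of all tested genes was 0.21. This comparison and the one for BPB use the same 3 controls.

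Set directly against each other at the same dose and time, BPAF and BPB, the 1 pair of compounds compared, gave no difference in the 10 genes that passed the limma test. None was called, where 0.24% of all genes were (33 genes, and 0 with a block for replicate number over all 9 libraries). An unadjusted p under 0.05 in limma was found for 1 of the 10, where 6.75% of all genes had one. Plin4 averaged 2.9 ± 1.51 FPKM in BPAF and 11.1 ± 3.42 FPKM in BPB, a log2 difference of -1.68 (interval -2.52 to -0.83, limma adjusted p = 0.172), and it was the 1 gene whose groups did not overlap with BPAF lower (6.41% of all genes, with a further 6.54% higher). For Adipoq the difference was -0.50 (interval -3.74 to 2.75), for Cfd -1.61 (interval -5.86 to 2.64) and for Retn -0.14 (interval -2.98 to 2.69). The intervals hold differences of several log2 units in either direction, so equal levels under the 2 compounds are not shown. The median of the 10 was -0.53, against 0.07 for all tested genes.

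Of 8 adipocyte transcription factors 7 were tested. In BPB against control 1 rose and 1 fell, where 2.55% of all tested genes were called in either direction. Averaged over the 8 factors, log2(FPKM + 1) reached 3.14, 2.89 and 3.22 in the BPB libraries, 2.9, 2.26 and 3.15 in the BPAF libraries, and 2.53, 2.31 and 2.35 in the controls. It was above every control in the 4 exposed libraries with high Adipoq and lowest in BPAF 2, and it was also high in BPB 3, where Adipoq was low. Pparg, which encodes the master regulator of fat cell maturation, rose: it had 10.2, 15.9 and 15.7 FPKM in BPB, 11.1, 0.793 and 1.32 FPKM in BPAF, and 1.9, 0.731 and 0.65 FPKM in the controls (log2 difference of BPB against control 2.86, limma adjusted p = 0.0493). Pparg was thus high in BPB 3, where Adipoq was low, and low in BPAF 3, where Adipoq was high. The libraries with high Pparg were those with high Upk1a, and PPARγ is also known from the bladder lining. Pparg kept its call in 4 of 18 alternative settings, with adjusted p up to 0.195. Cebpb, an early factor of fat cell maturation that many other cells express, fell to 28.6, 21.5 and 23 FPKM in BPB, against 69.5, 54.6 and 80.8 FPKM in control (limma adjusted p = 0.0381, kept in 9 of 18 settings, with adjusted p up to 0.179). Cebpa, a late factor, had 14.6, 8.84 and 9.85 FPKM in BPB, 12.2, 2.98 and 12.7 FPKM in BPAF, and 4.33, 3.72 and 2.96 FPKM in the controls, and did not pass (limma adjusted p = 0.163 for BPB against control).

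**Figure D4:**
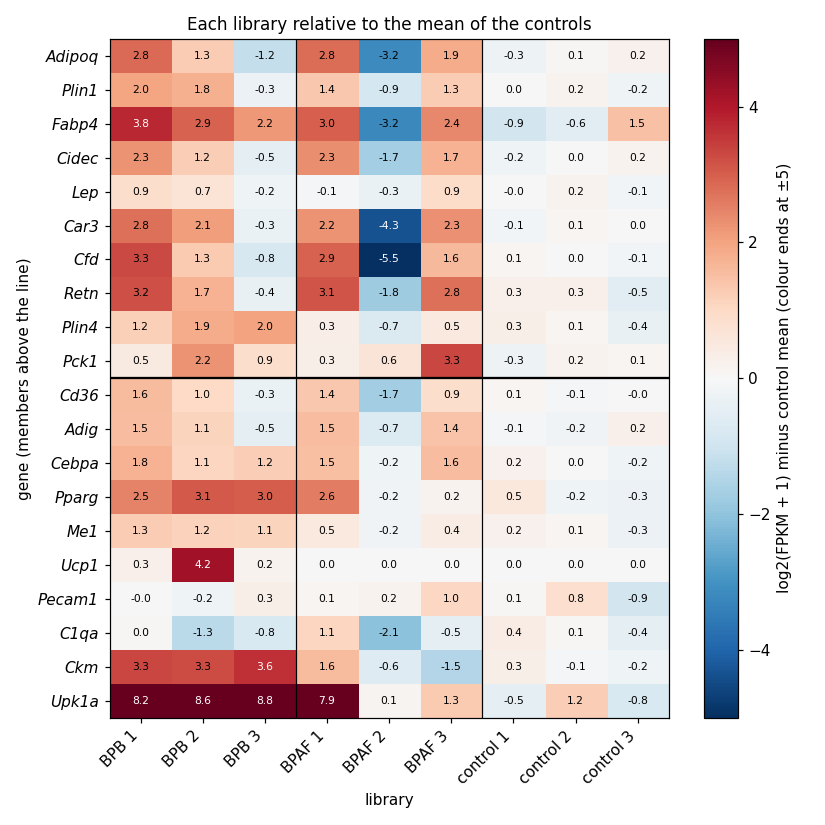
Difference of each library from the control mean in log2(FPKM + 1), for the 10 adipocyte genes above the line and 10 other genes below it; red is higher, blue lower, and colour ends at 5 units. Cd36 and Adig, both among the genes picked by likeness to the 10, go with Adipoq across libraries. Pparg and Upk1a are high in the 3 BPB libraries and BPAF 1.

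Lists of fat metabolism genes outside the 10 held 1 called gene in BPB against control, where 2.55% of all tested genes were called. In BPB against control, 1 of 13 tested genes of fatty acid and glycerolipid synthesis rose: Me1, malic enzyme, a source of NADPH, stood at 32.4 ± 1.84 FPKM in BPB, against 13.8 ± 2.53 FPKM in control (log2 difference 1.19, limma adjusted p = 0.0466, kept in 5 of 18 settings). Scd1, a desaturase, had 81.6, 147 and 21.1 FPKM in BPB, 28.6, 5.69 and 62.6 FPKM in BPAF, and 31, 30.1 and 7.96 FPKM in control. None was called among 7 tested genes of lipid uptake and glucose transport, 9 of lipolysis, 5 other droplet proteins and 7 other secreted and membrane proteins, where 2, 2, 1 and 1 genes had an unadjusted p under 0.05, all higher in BPB, and 17.4% of all tested genes had such a p in either direction. The medians of these 4 lists were 0.76, 0.78, 0.50 and 0.64, against 0.15 for all tested genes. Lpl, lipoprotein lipase of the capillary wall, had 41.2, 22.1 and 4.88 FPKM in BPB, 29.1, 5.17 and 25.4 FPKM in BPAF, and 19.6, 24.4 and 23 FPKM in control. Its 2 lowest values were in BPB 3 and BPAF 2, the libraries lowest for Adipoq. Plin2 and Plin3, droplet proteins of most cell types, varied less: Plin3 had 33.6 to 45.9 FPKM in BPB, 28.6 to 45.3 FPKM in BPAF and 25.1 to 33.2 FPKM in control. In BPAF against control no gene of these lists or of the transcription factors was called by limma, where 0.0218% of all tested genes were. An unadjusted p under 0.05 was found for 3 of these genes with BPAF higher and 2 with BPAF lower. Of all tested genes, 12.8% had such a p in either direction.

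Across the 9871 searched genes that reached 5 FPKM in some library, the 8 most like the mean profile of the 10 adipocyte genes over 9 libraries were Cd36 (Pearson r 0.98), Cyp2e1 (0.96), Hyi (0.96), Adig (0.93), Agpat2, Retnla, Cd302 and Pnpla8 (0.92 each). Without BPAF 2 the values were 0.82 to 0.96. Cd36, a fatty acid transporter, had 9.96, 6.3 and 1.88 FPKM in BPB, 8.33, 0.0985 and 5.74 FPKM in BPAF, and 2.88, 2.4 and 2.63 FPKM in control. Cyp2e1, a cytochrome P450 of liver and fat, had 45.9, 24 and 8.37 FPKM in BPB, 67.9, 0 and 28.9 FPKM in BPAF, and 8.6, 7.46 and 3.3 FPKM in control. Adig, or adipogenin, a small protein of fat cells, had 5.19, 3.65 and 0.558 FPKM in BPB, 5.18, 0.32 and 4.83 FPKM in BPAF, and 1.05, 0.877 and 1.56 FPKM in control. In all 3 genes BPAF 2 was the lowest library, as it was in the mean profile by which they were picked.

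Markers of other cell types differed in how they moved across libraries, and some shared the low level in BPAF 2. The 6 urothelial genes summed to 1363, 2013 and 2221 FPKM in BPB, 1193, 5.41 and 14.3 FPKM in BPAF, and 27.9, 26.9 and 2.83 FPKM in control. Of these, 5 rose in BPB (limma adjusted p of 0.0223 to 0.044), where 2.55% of all tested genes were called in either direction. Upk2, Upk3a and Gata3 reached 1 FPKM only in the BPB libraries and BPAF 1, so they entered the test only through libraries where they were high. Gata3 kept its call in 11 of 18 settings, Upk1a in 9, and Upk1b, Upk2 and Upk3a in 8 each, with adjusted p up to 0.178 among the 5. BPB 3 had the highest urothelial sum with 3.17 FPKM of Adipoq, and BPAF 3 had 14.3 FPKM with 33 FPKM of Adipoq. The 8 skeletal muscle genes, of interest because of Car3, summed to 304, 202 and 504 FPKM in BPB, 118, 55.5 and 12 FPKM in BPAF, and 159, 133 and 84.1 FPKM in control. Car3 was 105 FPKM in BPAF 3, which had the lowest muscle sum. Of the muscle list 6 genes were tested and 2 were called in BPB against control, where 2.55% of all tested genes were. Ckm, muscle creatine kinase, rose in BPB (limma adjusted p = 0.0306, kept in 8 of 18 settings, with adjusted p up to 0.147). Myh2, a fast myosin, was also called (limma adjusted p = 0.0109), but it reached 1 FPKM in the 3 BPB libraries alone and so entered the test only through the group where it was high. The 8 endothelial genes, of interest because of Fabp4, summed to 53.2, 38.8 and 53.3 FPKM in BPB, 48.4, 64.4 and 115 FPKM in BPAF, and 46.6, 86.1 and 26 FPKM in control. BPAF 2 had 0.454 FPKM of Fabp4 with an endothelial sum of 64.4 FPKM.

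Macrophage genes, of interest because of Fabp4 as well, summed to 292, 76.5 and 128 FPKM in BPB, 512, 41.1 and 233 FPKM in BPAF, and 276, 189 and 139 FPKM in control. The sum was highest in BPAF 1 and BPB 1 and lowest in BPAF 2, where Fabp4 was also lowest, at 0.454 FPKM. In BPB 2, with 104 FPKM of Fabp4, the macrophage sum was below every control. Of the mesothelial list 5 genes were tested and 1 was called in BPB against control, where 2.55% of all tested genes were called. This was Upk3b, which rose in BPB (limma adjusted p = 0.0476, kept in 6 of 18 settings, with adjusted p up to 0.187) and is also known from urothelium. The list sum was 239, 300 and 252 FPKM in BPB, 232, 280 and 79.7 FPKM in BPAF, and 354, 230 and 194 FPKM in control. Most of this sum was Krt19, at 274 FPKM in BPAF 2 and 344 FPKM in control 1. Averaged over the list, log2(FPKM + 1) was 3.84, 3.04 and 3.87 in BPB, 3.22, 2.18 and 2.44 in BPAF, and 2.64, 2.64 and 2.35 in control. By that measure BPAF 2 was the lowest library. Of 6 tested fat cell progenitor genes 1 was called, Pi16, beside the same 2.55% of all tested genes. Pi16 rose in BPB, at 16.7, 13.4 and 11.5 FPKM against 1.38, 4.44 and 1.4 FPKM in control (limma adjusted p = 0.0296, kept in 10 of 18 settings, with adjusted p up to 0.142). The median log2 difference of the progenitor list was 0.07. Of the mammary gland genes, 4 of 6 were at 0 in every library (Csn2, Csn1s1, Wap and Glycam1), and the highest sum was 0.389 FPKM, in BPAF 1. The 6 liver and kidney genes, listed because of Pck1, summed to 11.8, 20 and 15.6 FPKM in BPB, 15.6, 0.722 and 11.7 FPKM in BPAF, and 27.7, 0.657 and 0.576 FPKM in control. In every exposed library but BPAF 2, most of the sum was Ttr, or transthyretin, a plasma carrier of thyroid hormone. Ttr had 11.3, 16.8 and 12.4 FPKM in BPB, 14.5, 0 and 9.2 FPKM in BPAF, and 2.66, 0.237 and 0.195 FPKM in control. Ttr was above every control in the 3 BPB libraries, BPAF 1 and BPAF 3, and listed at 0 in BPAF 2. Of 12 genes of uterine epithelium, stroma and muscle none was called by limma in BPB against control. An unadjusted p under 0.05 was found for 5 of the 12 with BPB higher and 1 with BPB lower. Of all tested genes, 17.4% had such a p in either direction, a smaller share than in this list. The part of these markers in the adipocyte pattern was not tested.

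**Figure D5:**
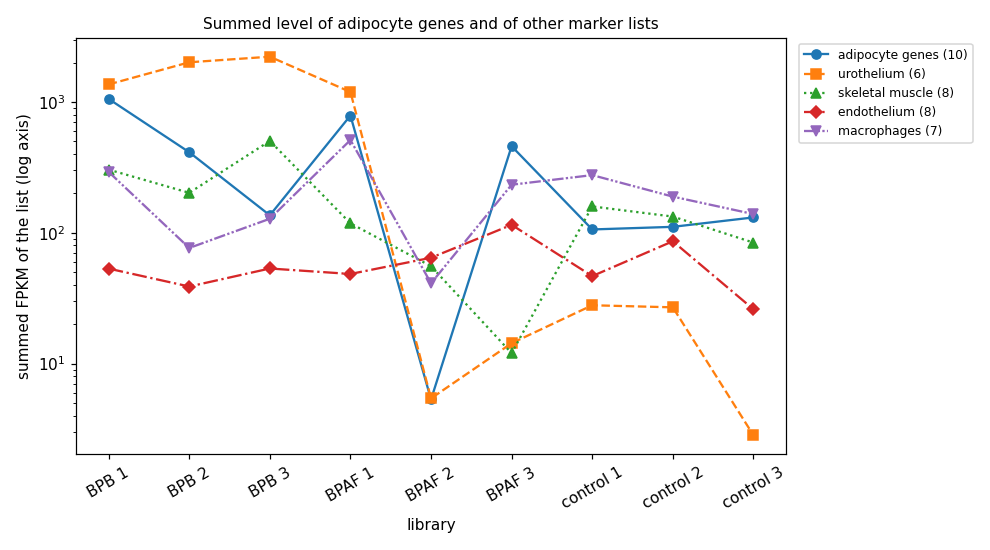
Summed FPKM, on a log axis, of the 10 adipocyte genes and of 4 marker lists in each library, with the number of genes in brackets. The adipocyte sum falls to 5.31 in BPAF 2 and stands at 136 in BPB 3 and 459 in BPAF 3, whereas the urothelial sum is 5.41, 2221 and 14.3 in those libraries.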

How the data were processed

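RNA of 9 mouse uterus libraries was measured after a stranded mRNA kit, per the labels' protocols. The authors deposited 1 table of FPKM per library. The unit was read from the values, since the header names only the gene symbol and the library. Aligner, counter and genome build: not given in the sources used here. Of 34745 lines, 126 lines that shared 59 symbols were left out, and 27 symbols had turned into dates. Whole reads were recovered per gene from the steps of the values (within 0.02 of a whole number) to give depth. These describe counting error only.

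Groups follow the labels. Limma 3.58.1 (R 4.3.3, trend and robust) was fitted to log2(FPKM + 1) over all 9 libraries, for genes that reached 1 FPKM in 3 libraries or more, with Benjamini-Hochberg adjustment over 13743 genes and a threshold of 0.05. Differences on this scale understate the change of low genes. The code was tested on simulated data. The 10 genes and the marker lists were chosen with earlier results of these data known. Besides the 10, the text draws on the called genes and up to 4 of the highest genes of each list, and on the 8 genes most like the mean of the 10 by Pearson r. Other genes that it names (Esr1, Hoxa10, Upk1a, Actg2, Myh11 and genes set beside a member) were chosen after their values were seen.

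Deviations of same-numbered libraries from their group means correlated at 0.34, 0.34 and 0.48 between BPAF and BPB, with no label that ties the numbers. Between BPAF and BPB, libraries of unlike number correlated at -0.34 to -0.07. Some exposed and control libraries of unlike number correlated as highly, at 0.45 for BPB 1 with control 3 and 0.37 for BPB 3 with control 2. A pairing by number is therefore not shown, and the main test used none. Same-numbered libraries of BPB and control correlated at -0.37, -0.13 and -0.4, and those of BPAF and control at -0.16, -0.08 and -0.25. Other filters, pseudocounts, scaling, a replicate block and the omission of each library were tried. The replicate block tied same-numbered libraries of all 3 groups, controls included.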

Additional observations from a re-analysis of the deposited data

Results flagged for a closer look

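Myh2, a fast myosin of skeletal muscle, had 0.0514, 0 and 0.0197 FPKM in BPAF, 2.73, 2.19 and 1.84 FPKM in BPB, and 0.0175, 0.0285 and 0 FPKM in control. Its log2 difference of BPAF against BPB was -1.66 (limma adjusted p = 0.0414), lower in BPAF in 3 of 3 libraries. It reached 1 FPKM in the 3 BPB libraries alone, so it entered the test only through the group where it was high, and with a BPB library left out it was not among the genes tested. With the replicate block the adjusted p was 0.181, and the call was kept in 5 of 15 alternative settings.

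Actg2 and Myh11, smooth muscle genes picked out after their values were seen, lay above every control in all BPB libraries and below every control in all BPAF libraries. Their difference between the compounds did not pass the limma test. Actg2, smooth muscle gamma actin, had 248, 225 and 58.3 FPKM in BPAF, 809, 704 and 1266 FPKM in BPB, and 426, 524 and 406 FPKM in control. Its mean was 749 FPKM higher in BPB, and its log2 difference of BPAF against BPB was -2.59 (limma adjusted p = 0.127). Myh11, smooth muscle myosin, had 169, 229 and 87.8 FPKM in BPAF, 534, 1065 and 1222 FPKM in BPB, and 424, 503 and 239 FPKM in control. Its mean was 778 FPKM higher in BPB, and its log2 difference of BPAF against BPB was -2.55 (limma adjusted p = 0.0918). Of all tested genes, 19.5% were higher in BPB than in control without overlap and 2.5% lower in BPAF than in control without overlap. The share of all tested genes with both was not counted, so how unusual the joint pattern is remains unknown. Other smooth muscle genes did not share the full pattern: Des had 471 FPKM in BPB 1, against 538 FPKM in control 2, and Acta2 had 1219 FPKM in BPAF 2, against 1125 FPKM in control 3.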

How the results depend on the processing

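The number of genes called for BPB against control was 351, and 163 with no filter, 151 at 5 FPKM, 152 and 66 with pseudocounts of 0.1 and 0.01, 19 with the replicate block, 774 at an adjusted p under 0.1, and 0 (without control 1) to 436 with 1 library left out. It was 1 without BPB 2 or BPB 3, 61 without control 3, 87 without control 2 and 132 without BPB 1. For BPAF against control it was 3, and 0 at 5 FPKM, with the replicate block and in the 6 libraries alone, and 0 to 2 with 1 library left out. For BPAF against BPB it was 33, and 11 with no filter, 0 at 5 FPKM, at both other pseudocounts, with the replicate block, in the 6 libraries alone and, in an alternative chosen after seeing the data, in those 6 with the block. It was 66 at an adjusted p under 0.1, and 0 to 237 (without BPAF 1) with 1 library left out. Adipocyte genes called for BPB against control were 0, and 1, Plin4, without robust estimation (adjusted p = 0.0494), in the 6 libraries alone (0.0333), at an adjusted p under 0.1 and without BPAF 2 (0.0278). They were 0 to 1 with 1 library left out, and 0 with the replicate block. For BPAF against control, signs turned with the pseudocounts of 0.1 and 0.01 for Adipoq (-0.35 and -0.82), Car3 (-0.76 and -1.11) and Plin4 (-0.02 and -0.02), with 0.01 for Plin1 (-0.73), Cidec (-0.97), Lep (-0.75) and Retn (-0.33), and under median-ratio scaling for Car3 (-0.20) and Plin4 (-0.19). With 1 library left out, the differences of BPAF against control ran from -0.67 to 2.31 for Adipoq, -0.42 to 2.7 for Fabp4, -1.05 to 2.27 for Car3, -1.96 to 2.27 for Cfd and -0.21 to 0.39 for Plin4. Those of BPAF against BPB ran from -1.64 to 1.33 for Adipoq, -1.28 to 0.16 for Plin1, -0.97 to 1.02 for Cidec, -2.56 to 0.76 for Car3, -3.24 to 0.99 for Cfd, -1.1 to 1.43 for Retn and -0.74 to 0.79 for Pck1. The genes of the marker lists called for BPB against control lost their calls with the replicate block (adjusted p from 0.052 for Myh2 to 0.0908 for Cebpb). The cause was not tested. Depth limits Lep, which had 0 to 67 reads.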

Other observations

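Among the 10 genes of the brown and beige list, Ucp1, Cidea and Cox8b, shown here because of their values, were highest in BPB 2. Ucp1, the uncoupling protein of brown and beige fat cells, had 0.208, 17.1 and 0.136 FPKM in BPB, and 0 FPKM in all BPAF and control libraries, with 439 reads in BPB 2 and 5 and 3 in BPB 1 and BPB 3. Cidea, a droplet protein of brown fat, had 4.12, 25.7 and 1.28 FPKM in BPB, 0.804, 0.0589 and 0.193 FPKM in BPAF, and 1.14, 0.434 and 2.45 FPKM in control. Cox8b, a cytochrome oxidase subunit of brown fat and muscle, had 8.33, 12.6 and 2.88 FPKM in BPB, 3.88, 0 and 0.826 FPKM in BPAF, and 0.366, 0.598 and 0.657 FPKM in control. Adipoq was highest in BPB 1. Prdm16 was also highest in BPB 2, at 0.56 FPKM. The remaining genes of the list were highest elsewhere. Among these, Dio2 had 97.5 FPKM in BPB 2 and 178 FPKM in control 1. The highest values were 4.7 FPKM in BPAF 3 for Cpt1b, 2.41 FPKM in control 2 for Elovl3 and 3.9 FPKM in control 1 for Otop1. Of the 5 tested genes of the brown and beige list none was called by limma in BPB against control, and 1 had an unadjusted p under 0.05, where 17.4% of all tested genes did.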
